A study of Mus musculus with 28 samples.

Results

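The cytosolic ribosome translates mRNA into protein and consists of a large and a small subunit, each made of ribosomal RNA and ribosomal proteins. The genes of these proteins were examined here as 84 rows of a table of 43143 rows, of which 18509 carried a gene symbol. A row was a member when its symbol was Rpl or Rps with a number and at most a short suffix, or was Rplp0, Rplp1, Rplp2 or Rpsa, and pseudogenes and the Rps6k kinases were left out. Of the members, 49 belong to the large and 35 to the small subunit. RNA-seq had been done on 28 libraries of 3LL, a cell line from the Lewis lung carcinoma of the mouse, either in culture or as subcutaneous tumors. The 12 libraries of cultured cells were 4 of wild-type cells (WT), 4 of KEAP1-KO cells, in which the Keap1 gene was cut by CRISPR-Cas9, and 4 of DKO cells, in which the gene of NRF2 was cut as well. The 16 tumors came from 3LL cells of these genotypes transplanted into both flanks of albino C57BL/6 male mice aged 6 weeks and were removed on day 10. In Experiment A, 4 WT tumors grew on the left and 4 KEAP1-KO tumors on the right flank. In Experiment B, 4 KEAP1-KO tumors grew on the left and 4 DKO tumors on the right, so that genotype and flank change together within an experiment and cannot be told apart. Both genotypes of an experiment grew in the same mice. Which tumors shared a mouse is not stated in the sources used here, and the main fits did not use this pairing. Edited cells were grown from wells plated at single-cell density, and DKO cells were made from KEAP1-KO cells. More than 1 KEAP1-KO line was made, and which of them gave each library is not stated in the sources used here, so that cells and tumors of a genotype may come from different lines. The hosts were immunocompetent, so that a tumor library holds RNA of host cells too.

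KEAP1 is the adaptor that marks NRF2 for degradation, and NRF2 is a transcription factor of antioxidant and detoxifying genes. Ribosomal protein genes are among the most strongly transcribed genes of growing cells. Many of their mRNAs begin with a C followed by a run of pyrimidines, the 5′ terminal oligopyrimidine (TOP) motif, through which their translation follows mTOR signalling. Several members have further roles. The products of Rpl5 and Rpl11 bind the p53 regulator MDM2 when ribosome assembly fails, and mutations in Rps19 and other members cause Diamond-Blackfan anemia in people.

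The edits were visible in the table. Keap1 was between 9.35 and 9.56 in WT cells and between 7.52 and 7.65 in KEAP1-KO cells, in log2(normalized count + 4), the scale of all values given here without another unit. Nqo1, a gene that NRF2 activates, was in KEAP1-KO tumors between 12.25 and 12.51 (Experiment A) or between 11.93 and 12.40 (Experiment B), and it was between 5.25 and 6.25 in DKO tumors. The only row with the symbol Nfe2l2, the gene of NRF2, is a processed transcript, and it did not separate the groups of Experiment B (5.41 to 5.72 in KEAP1-KO and 5.47 to 5.68 in DKO tumors). Each library held between 4222352 and 7524277 reads. The lowest value, 2, stands for 0 reads.

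A symbol marks 1 row, which is not the sum over the gene. By the annotation, 42 member rows are retained introns, 14 processed transcripts, 14 protein coding transcripts, 11 gene rows and 3 transcripts subject to nonsense-mediated decay. Another 210 rows without a symbol belong to member genes, and in 19 members one of those is higher than the row with the symbol. Reads of near-identical transcripts and of the many processed pseudogenes may have been shared out between rows, so single values are uncertain to that extent. 46 rows, 31 of the large and 15 of the small subunit, had a mean above 10 and are called abundant below. After the filter on low values, 83 members were tested in tumors and in the joint fit, and 81 in cells. Rpl39l was below the filter in every fit, and Rpl7 and Rps4l were below it in cells. Differences are coded as the first group named minus the second, were tested with limma with adjustment over all rows tested, and are called at an adjusted p under 0.05. As the labels do not say that replicates were separate cultures, p-values measure the spread between these libraries. In bulk samples, fewer cells of a type and less RNA per cell cannot be told apart.

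The members took a larger share of the RNA in culture than in tumors, and the smallest share in DKO tumors. Their share of all normalized counts was 5.92% to 6.49% in WT cells (median 6.28%), 5.75% to 5.92% in KEAP1-KO cells (median 5.84%) and 5.59% to 5.93% in DKO cells (median 5.83%). It was 4.03% to 4.39% in WT tumors (median 4.13%), and in KEAP1-KO tumors 4.30% to 4.53% (median 4.45%) for Experiment A and 4.23% to 4.54% (median 4.46%) for Experiment B. In DKO tumors it was 3.21% to 3.47% (median 3.37%), and the 4 DKO tumors lay below each of the other 24 libraries. Large and small subunit moved nearly in parallel. The ratio of their counts was between 2.04 and 2.22 in all 28 libraries. WT cells were at the top (2.19 to 2.22), above KEAP1-KO (2.09 to 2.17) and DKO cells (2.08 to 2.11) without overlap. The ratio was 2.14 to 2.16 in WT tumors and 2.04 to 2.11 in DKO tumors.

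**Figure D1:**
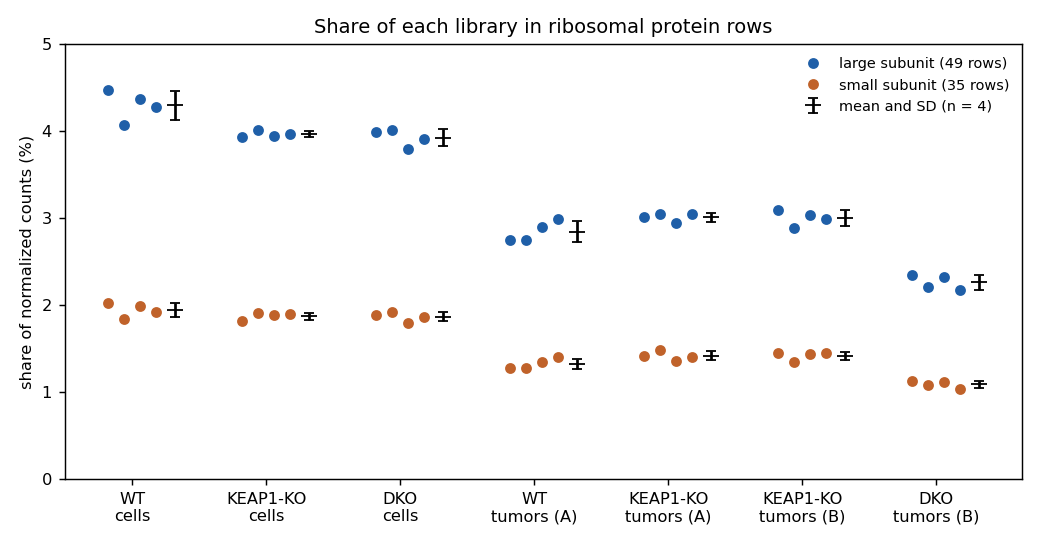
Share of normalized counts (%, vertical axis) in rows of the large (blue) and the small subunit (orange) in each library, by group, with the mean and SD of 4 libraries beside them. Both subunits are highest in cultured cells and lowest in DKO tumors, where the share of all members is 3.21% to 3.47%.

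Within Experiment B, many ribosomal protein rows were lower in DKO than in KEAP1-KO tumors. Of 83 members tested, 43 were lower in DKO than in KEAP1-KO tumors and 0 were higher, where 4.64% of all 34215 rows tested were called lower and 4.22% higher. At an unadjusted p under 0.05 the limma counts were 55 lower and 0 higher. The median difference was -0.47 over the members and 0.00 over all rows. Among the abundant members 40 of 46 were lower, with all 46 differences below 0 and a median of -0.50. Abundant rows of any gene, members included, were lower in 33.5% and higher in 7.16% of 838 rows, with a median of -0.17. The 4 DKO and the 4 KEAP1-KO tumors did not overlap in 47 members, against 14.6% of all rows.

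Among the 3 members named for the largest falls, Rpsa encodes the small subunit protein also known as the laminin receptor, and its row is a nonsense-mediated decay transcript that is the highest of the gene. Its values were 12.73, 12.74, 12.72 and 12.86 in KEAP1-KO tumors and 12.14, 12.05, 11.98 and 11.86 in DKO tumors. The groups were well apart, with a difference of -0.75 (SE 0.07, limma adjusted p = 3.21e-06). Rpl34, a protein of the large subunit, was at 11.96, 11.86, 12.02 and 12.01 in KEAP1-KO tumors and at 11.28, 11.21, 11.20 and 11.14 in DKO tumors. Every DKO tumor lay below every other tumor in this row, and the difference was also -0.75 (SE 0.09, limma adjusted p = 2.72e-05). Rps19, the small subunit protein most often mutated in Diamond-Blackfan anemia, is represented by a nonsense-mediated decay transcript at a low level. It was at 6.41, 5.71, 6.17 and 6.47 in KEAP1-KO tumors and at 3.79, 4.79, 4.98 and 5.57 in DKO tumors. The groups did not overlap, although the DKO tumors were spread widely, and the difference was -1.41 (SE 0.36, limma adjusted p = 0.0202). With all rows of the gene summed, it was -0.86. The row with the symbol is not the highest row of Rps19.

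**Figure D2:**
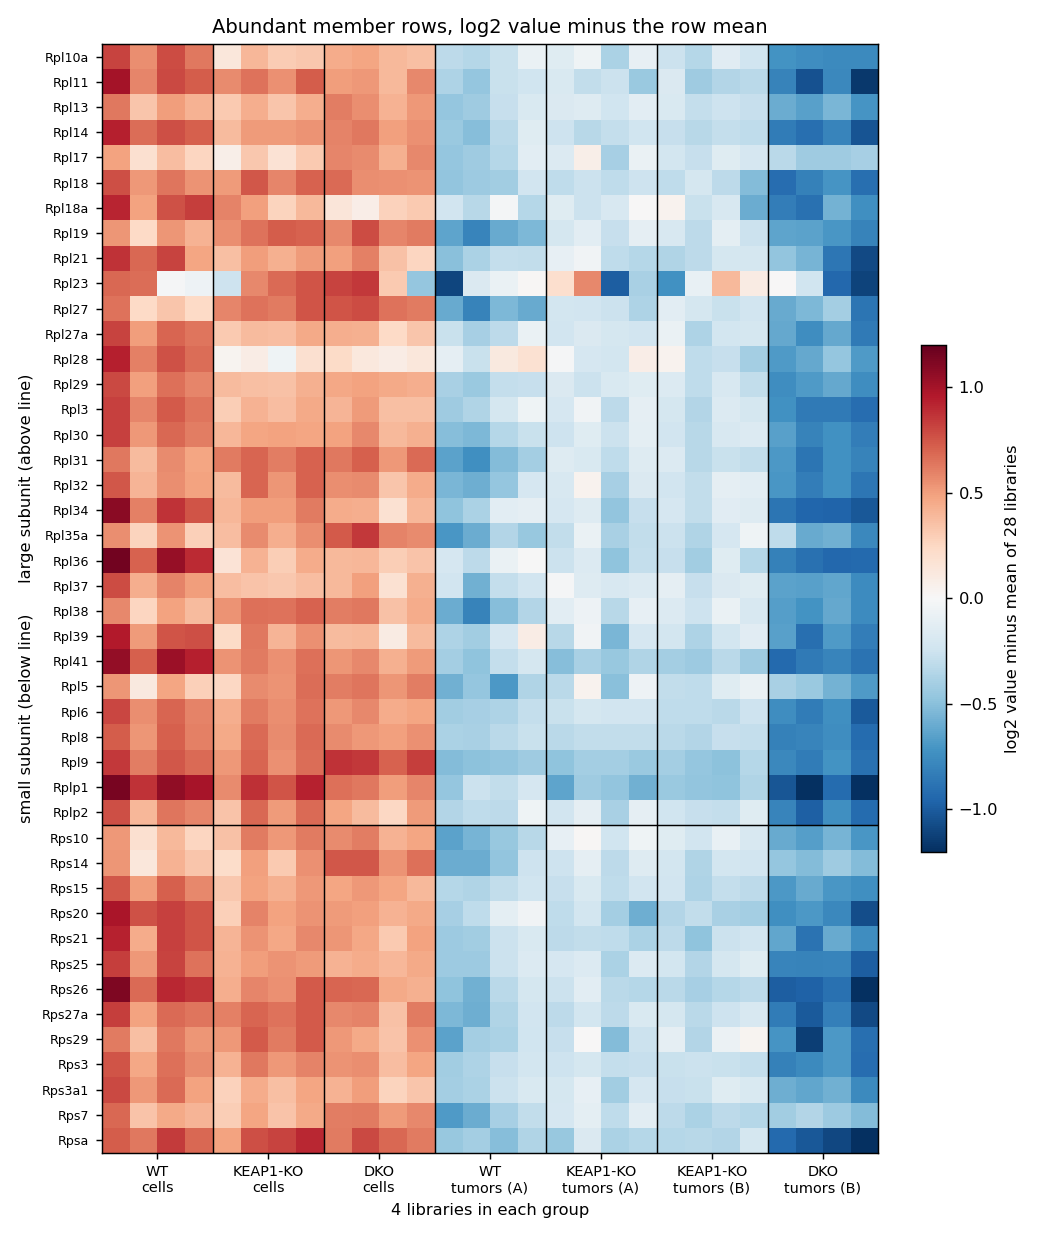
Log2 value minus the mean of 28 libraries (color scale) for 44 of the 46 abundant member rows, with 4 libraries in each of 7 groups along the horizontal axis and the large subunit above the line. The 3 groups of cultured cells are mostly above and the tumors mostly below the row means, with DKO tumors lowest in most rows.

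The stalk of the large subunit, which recruits elongation factors, is made of the products of Rplp0, Rplp1 and Rplp2. Rplp1 was at 12.78, 12.75, 12.74 and 12.85 in KEAP1-KO and at 12.19, 11.90, 12.29 and 12.01 in DKO tumors, a difference of -0.68 (SE 0.08, limma adjusted p = 3.95e-05). Rplp2 was at 11.58, 11.54, 11.54 and 11.68 against 11.03, 10.84, 11.08 and 10.90, a difference of -0.62 (SE 0.08, limma adjusted p = 9.81e-05). Neither pair of groups overlapped. Rplp0, a protein coding transcript of low level here, ranged from 4.0 to 7.45 in KEAP1-KO and from 5.37 to 7.92 in DKO tumors. These groups overlapped over most of their range, and its difference of 0.75 did not pass the test (limma adjusted p = 0.61).

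Of the 10 members on a list of Diamond-Blackfan anemia and p53 surveillance genes, 6 were lower in DKO tumors and 0 were higher, where 43 of all 83 members and 4.64% of all rows were lower. Rpl11 was at 11.06, 10.81, 10.88 and 10.91 in KEAP1-KO tumors and at 10.44, 10.18, 10.46 and 10.07 in DKO tumors, with a difference of -0.63 (SE 0.09, limma adjusted p = 0.000272). Rps26, at the exit of the mRNA channel, was at 11.42, 11.35, 11.41 and 11.43 against 10.75, 10.77, 10.85 and 10.49, with a difference of -0.68 (SE 0.08, limma adjusted p = 6.27e-05). Rpl35a, Rps10 and Rps19 were also called, with differences between -1.41 and -0.35. Rpl5, the partner of Rpl11 in the 5S particle, had a difference of -0.31 that did not pass (limma adjusted p = 0.101), although its groups did not overlap. Rps7 was at 12.42, 12.36, 12.42 and 12.39 in KEAP1-KO and at 12.32, 12.39, 12.30 and 12.21 in DKO tumors. The groups overlapped, and the difference of -0.09 was nearest to 0 of all abundant members (limma adjusted p = 0.555). Rps24 had a difference of -0.81 and Rps27 one of -0.05, and neither passed the test.

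Rps3, whose product lies at the mRNA entry and also takes part in DNA repair, was between 12.13 and 12.15 in KEAP1-KO and between 11.50 and 11.73 in DKO tumors, with a difference of -0.52 (SE 0.05, limma adjusted p = 9.26e-06). The 4 KEAP1-KO tumors of Experiment B were nearly identical in this row, and all DKO tumors were below them. Rps6, the substrate of S6 kinase, is represented by a processed transcript, which was between 5.69 and 6.17 against 5.58 and 5.95. Its groups overlapped, and the difference of -0.10 did not pass (limma adjusted p = 0.74). Rpl13a is represented by a minor protein coding transcript of 2.0 to 2.95 in KEAP1-KO tumors and of 2.0 to 2.63 in DKO tumors, at the limit of detection. With all of its rows summed, Rpl13a differed by -0.61 (limma adjusted p = 0.00059). Among the 6 abundant members that were not called were Rpl5, Rpl17, Rpl23, Rps7 and Rps14.

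The start sites of the members show the TOP motif in part. RefSeq promoters of GRCm38.p6, each 300 bases long, were matched for 61 of the 84 members. The motif searched was a C followed by at least 4 bases that are each C or T, on the strand of the gene and starting within 5 bases of the annotated start. It was found in 29 of the 61 genes (47.5%), in 17 of 37 of the large subunit (45.9%) and in 12 of 24 of the small subunit (50%), and in 21.2% of all 27025 genes with a promoter. Annotated starts can be off by some bases, so that a window without a match says only that these letters are not there. The windows of 30 bases below, from 10 bases before the start, are given for some of the members whose differences are described in the text, picked to show windows of both kinds. The first 6 hold the motif, in capitals, and the last 2 do not.
Rpl34, minus strand of chr3:130730318-130730347: cttttCCTCTTCCggggacggtgctcagag
Rpl12, plus strand of chr2:32961702-32961731: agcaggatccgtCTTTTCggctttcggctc
Rpl38, plus strand of chr11:114668570-114668599: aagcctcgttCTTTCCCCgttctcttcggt
Rplp2, plus strand of chr7:141447641-141447670: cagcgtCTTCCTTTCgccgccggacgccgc
Rps10, minus strand of chr17:27635225-27635254: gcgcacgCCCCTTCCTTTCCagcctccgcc
Rps26, minus strand of chr10:128626487-128626516: gcaagccgccggatCCTCTTTCgagtcttg
Rpsa, plus strand of chr9:120127756-120127785: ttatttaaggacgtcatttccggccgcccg
Rps3, minus strand of chr7:99483690-99483719: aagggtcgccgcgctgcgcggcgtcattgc
As these windows were picked, the share of them with the motif is not that of the members, and nothing is read from it about the differences. The core letters of the element that NRF2 binds, TGACNNNGC on either strand, were in the 300-base windows of 12 of the 61 genes (19.7%) and of 14.0% of all genes with a promoter. Such a match is a description of letters and not of binding.

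Of other genes of protein synthesis, a minority were called in Experiment B, where 4.64% of all rows and 33.5% of abundant rows were lower. Of 52 ribosome biogenesis genes tested, which build the particles in the nucleolus, 14 were lower and 0 higher in DKO tumors, with a median difference of -0.34. Of 23 other genes listed as TOP genes beforehand, and not by the search above, 9 were lower and 0 higher (median -0.41). Of 60 translation factors, some of which are also on that list, 12 were lower and 2 higher (median -0.17). Of 76 mitochondrial ribosomal protein genes, whose products form a separate ribosome, 17 were lower and 0 higher (median -0.18). Of 30 ribosomal protein pseudogenes tested, whose sequence resembles that of the members, 8 were lower and 0 higher (median -0.35).

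Several markers of host cells were higher in DKO tumors. The summed normalized counts of 14 leukocyte markers were 3182 to 3891 in KEAP1-KO and 5735 to 7694 in DKO tumors, with 7 of 10 tested higher in DKO tumors and 0 lower. Those of 8 stroma markers were 3172 to 4161 against 11091 to 14770, with 2 of 8 higher and 0 lower. Among them Dcn was between 9.16 and 9.99 in KEAP1-KO and between 12.20 and 12.97 in DKO tumors, and Col3a1 9.61 to 10.21 against 11.77 to 12.54. The endothelial marker Pecam1 overlapped (7.79 to 8.50 against 7.79 to 8.11), as did Col1a1, Col1a2, Pdgfra, Cdh5 and Kdr. Dcn and Col3a1 were also higher in DKO than in KEAP1-KO cells in culture. Their values there were 4.22 to 4.51 against 2.31 to 3.11, and 8.68 to 8.81 against 8.25 to 8.45. The sums of 6 skeletal muscle markers overlapped, at 11.2 to 54.2 against 21.3 to 403, and those of 8 proliferation genes 3357 to 4122 against 2321 to 3473. The part of all these markers in the lower member values was not tested.

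**Figure D3:**
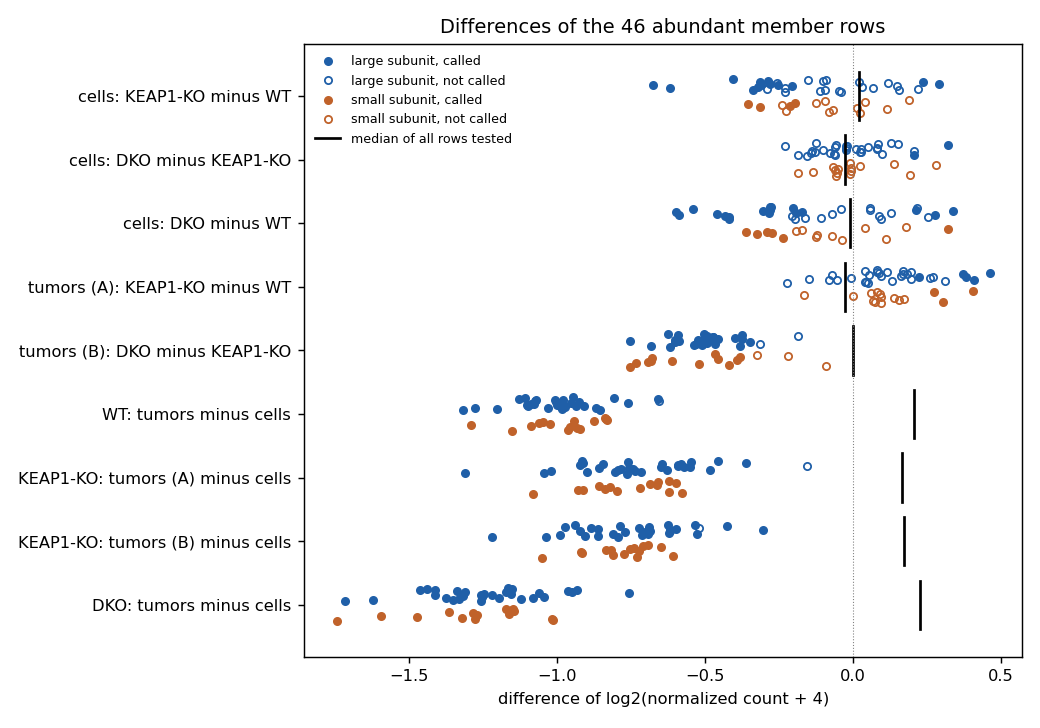
Differences of log2(normalized count + 4) (horizontal axis) for the 46 abundant members in 9 comparisons, large subunit in blue and small in orange, filled when called, with the median of all rows tested as a black line. Differences between DKO and KEAP1-KO tumors are all below 0, while those between DKO and KEAP1-KO cells lie on both sides of it.

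In Experiment A, the comparison of KEAP1-KO with WT tumors gave few calls. Of 83 members, 8 were higher and 1 lower in KEAP1-KO tumors, where 5.61% of all rows were called higher and 7.49% lower. At an unadjusted p under 0.05 these limma counts were 18 and 5. The median difference was 0.04 over the members and 0.09 over the abundant ones, against -0.03 over all rows, and with quantile normalization the member median was -0.03 and the calls 6 higher and 3 lower. With 1 library left out it lay between 0.0094, without WT tumor replicate 2, and 0.063, without WT tumor replicate 4, and it was 0.016 without KEAP1-KO tumor replicate 2 and 0.029 without WT tumor replicate 1. Over the rows of the gene and protein coding types alone it was -0.056. All 8 higher members were abundant (17.4% of 46, against 21.5% of abundant rows of any gene). Groups did not overlap in 11 members (16.3% of all rows). Of the abundant members 0 were called lower, against 19.2% of abundant rows, whose median was 0.00.

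Of the 3 members named for the largest rises in KEAP1-KO tumors, Rpl19 was at 12.35, 12.19, 12.37 and 12.44 in WT and at 12.77, 12.85, 12.70 and 12.87 in KEAP1-KO tumors. The groups did not overlap, and the difference was 0.46 (SE 0.06, limma adjusted p = 0.000102). Rpl38, known for its part in the translation of Hox mRNAs, was at 11.39, 11.18, 11.47 and 11.64 against 11.86, 11.93, 11.65 and 11.89, with a difference of 0.41 (SE 0.08, limma adjusted p = 0.00317). The highest WT tumor was just below the lowest KEAP1-KO tumor. Rps10 was at 12.48, 12.56, 12.66 and 12.78 against 13.02, 13.13, 12.88 and 13.06, again without overlap, with a difference of 0.41 (SE 0.07, limma adjusted p = 0.00057). The others called higher were Rpl27, Rpl30, Rpl31, Rps7 and Rps14, with differences between 0.22 and 0.38. Of the 8 members higher in KEAP1-KO tumors of Experiment A, 6 were among the 43 lower in DKO tumors of Experiment B, in separate libraries, where 87% of the abundant members were lower. The remaining 2 were Rps7 and Rps14.

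Leukocyte markers were lower in KEAP1-KO tumors of Experiment A, while most stroma markers were not called. Leukocyte sums were 5850 to 7453 in WT and 1934 to 2640 in KEAP1-KO tumors, with 6 of 10 markers tested lower and 0 higher. Stroma sums overlapped, at 5131 to 12249 against 2549 to 5296, with 1 of 8 lower. Their part in the member values was not tested. Between the KEAP1-KO tumors of both experiments, 0 of 83 members were higher and 0 lower by limma, also at an unadjusted p under 0.05, where 0.152% of all rows were called higher and 0.0117% lower in Experiment B. The differences of abundant members lay between -0.15 and 0.14, and 1 member, Rps7, did not overlap (4.11% of all rows).

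Rpl22l1 had the largest called fall of the members in KEAP1-KO against WT, in tumors and in cells. Its product is the paralog of Rpl22, and both bind RNA outside the ribosome. The Rpl22l1 row, a retained intron, was at 7.14, 7.10, 7.31 and 7.59 in WT tumors and at 5.98, 6.08, 5.76 and 5.96 in KEAP1-KO tumors of Experiment A. The groups were more than 1 unit apart, and the difference was -1.34 (SE 0.21, limma adjusted p = 0.000326). In cells the values were 8.21, 8.06, 8.24 and 8.35 for WT, 6.79, 6.99, 7.11 and 6.83 for KEAP1-KO and 7.20, 7.19, 6.75 and 7.15 for DKO. KEAP1-KO cells were lower than WT cells by a difference of -1.28 (SE 0.11, limma adjusted p = 6.55e-06), and DKO cells by one of -1.14 (SE 0.11, limma adjusted p = 1.61e-05). These differences share the WT libraries. DKO and KEAP1-KO cells overlapped, and their difference of 0.14 did not pass the test (limma adjusted p = 0.573). DKO tumors, at 5.29, 5.17, 5.69 and 5.54, overlapped with KEAP1-KO tumors of Experiment B, at 5.88, 5.49, 5.77 and 6.68 (difference -0.53, limma adjusted p = 0.146). Summed over the rows of the gene, the differences were -0.90 in Experiment A, -0.98 for KEAP1-KO against WT cells and -0.69 in Experiment B, the last with a limma adjusted p of 0.014. Rpl22 itself was lower in DKO than in KEAP1-KO cells (6.18, 6.46, 6.04 and 6.27 against 6.51, 6.89, 6.86 and 6.98), with a difference of -0.57 (SE 0.13, limma adjusted p = 0.0174). It was not called in the other genotype comparisons, with tumor values between 4.55 and 6.56 with much overlap.

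**Figure D4:**
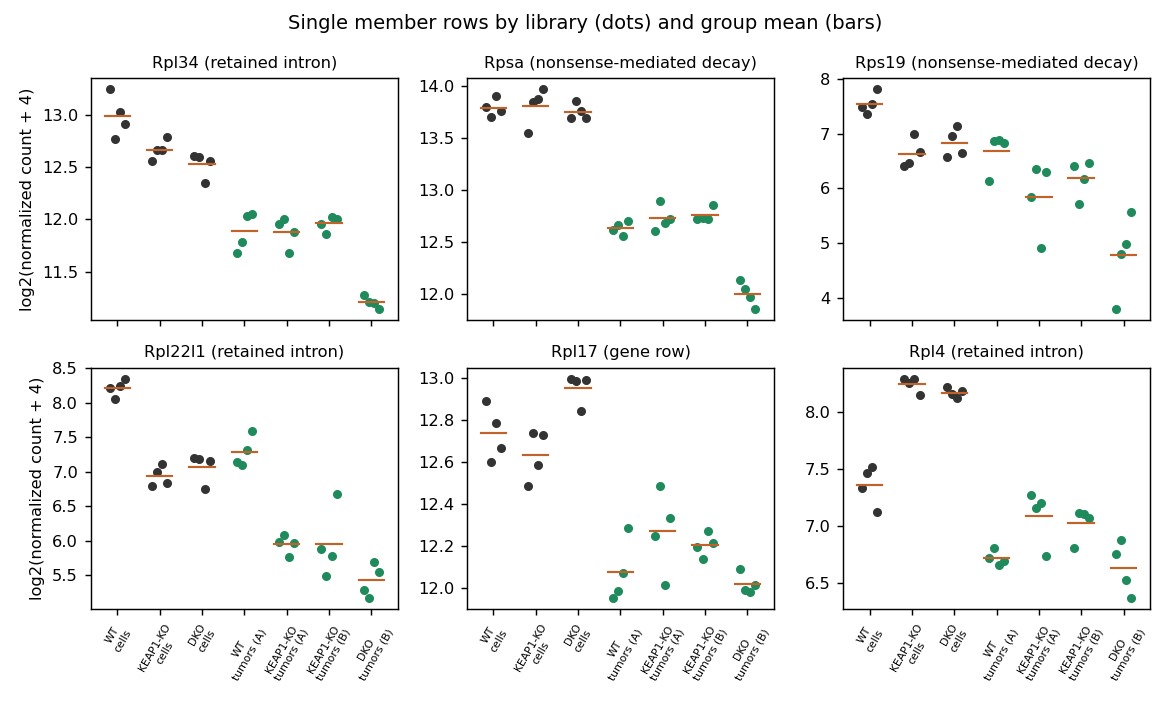
Log2(normalized count + 4) of 6 members in each library (dots; cells in grey, tumors in green) with the mean of 4 libraries (orange bars), on a separate vertical scale for each gene. Rpl34 and Rpsa are lowest in DKO tumors, Rpl22l1 is high in WT cells and WT tumors, and Rpl4 is high in KEAP1-KO and DKO cells.

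In cultured cells, the edited lines differed from WT cells in a minority of members and in both directions. Between KEAP1-KO and WT cells, 5 of 81 members were higher and 17 lower, where 8.13% of all 29744 rows were called higher and 7.33% lower. Among the abundant members 2 were higher (4.35% of 46, against 27.4% of abundant rows of any gene) and 15 lower (32.6% against 33.9%). The median difference was -0.08 over the members and 0.02 over all rows, and 19 members did not overlap (19.6% of all rows). The member median lay between -0.10 and -0.02 over the scalings. It was -0.13 without WT cell replicate 2, and -0.05 without WT cell replicate 1 or without KEAP1-KO cell replicate 1. With quantile normalization the calls were 12 higher and 20 lower. Between DKO and WT cells, 7 members were higher and 22 lower, against 8.46% and 9.2% of all rows, with a median of -0.13, and 24 did not overlap (21.2% of all rows). Among the abundant members 4 were higher (8.7%, against 31.5% of abundant rows) and 20 lower (43.5% against 27.8%). When the libraries were rescaled without the member rows, 13 were higher and 25 lower. Both comparisons share the WT libraries.

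Rpl28, a protein of the large subunit, was at 12.41, 12.08, 12.24 and 12.15 in WT cells and at 11.51, 11.57, 11.43 and 11.67 in KEAP1-KO cells. The groups did not overlap, with a difference of -0.68 (SE 0.07, limma adjusted p = 2.35e-05). DKO cells, at 11.71, 11.61, 11.56 and 11.61, lay below WT cells as well, with a difference of -0.60 (SE 0.07, limma adjusted p = 5.89e-05). Rps19 was at 7.49, 7.36, 7.55 and 7.81 in WT cells, at 6.41, 6.47, 7.01 and 6.67 in KEAP1-KO cells and at 6.57, 6.95, 7.14 and 6.65 in DKO cells. Both edited lines were below WT cells without overlap, with differences of -0.92 (SE 0.16, limma adjusted p = 0.00162) and -0.73 (SE 0.16, limma adjusted p = 0.00709). Over all rows of the gene, the first was -0.38. Of the anemia list, 2 of 10 members were lower in KEAP1-KO than in WT cells, Rps19 and Rps26, where 17 of all 81 members and 7.33% of all rows were lower.

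The members named for the largest rises against WT cells were Rpl4, Rps2, Rpl37a and Rpl7a, all by rows of low level. Rpl4, whose long loop reaches the exit tunnel of the large subunit, was at 7.33, 7.46, 7.51 and 7.12 in WT cells and at 8.30, 8.25, 8.29 and 8.15 in KEAP1-KO cells. The groups were well apart, with a difference of 0.89 (SE 0.08, limma adjusted p = 1.04e-05). DKO cells, at 8.22, 8.16, 8.12 and 8.18, overlapped with KEAP1-KO cells, with a difference of 0.81 (SE 0.08, limma adjusted p = 1.89e-05) from WT cells. Over all rows of Rpl4, the difference of KEAP1-KO from WT cells was 1.0. Rps2 was at 6.24, 5.69, 6.32 and 6.20 against 7.08, 6.68, 6.81 and 7.15, with a difference of 0.82 (SE 0.17, limma adjusted p = 0.00484). Over all rows of the gene it was 0.26 and did not pass the test (limma adjusted p = 0.32), and the row with the symbol is not the highest of Rps2. Rpl37a rose by 0.54 (SE 0.12, limma adjusted p = 0.00868) in KEAP1-KO cells, and Rpl7a by 0.55 (SE 0.15, limma adjusted p = 0.0207) in DKO against WT cells.

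Between DKO and KEAP1-KO cells, a comparison that shares the KEAP1-KO libraries with the one against WT cells, 3 of 81 members were called, 2 higher and 1 lower, where 3.98% of all rows were higher and 4.85% lower. At an unadjusted p under 0.05 the limma counts were 6 and 6. The median difference was -0.05, and 8 members did not overlap (14.5% of all rows). That median was -0.02 with median centring, 0.02 over gene and protein coding rows alone and -0.07 without KEAP1-KO cell replicate 1. It was closest to 0 without DKO cell replicate 3 (-0.014), KEAP1-KO cell replicate 2 (-0.018) or KEAP1-KO cell replicate 4 (-0.026). Rpl17 was at 12.49, 12.74, 12.59 and 12.73 in KEAP1-KO and at 13.00, 12.98, 12.84 and 12.99 in DKO cells, without overlap, with a difference of 0.32 (SE 0.07, limma adjusted p = 0.0127). Rpl9 was at 12.76, 12.94, 12.78 and 12.91 against 13.11, 13.09, 12.94 and 13.07, where the groups nearly met at 12.94, with a difference of 0.21 (SE 0.06, limma adjusted p = 0.0448). Rpl22 was the lower one. The count depended on scaling, with 5 higher and 6 lower after quantile normalization, and it was 1 without KEAP1-KO cell replicate 3 or without KEAP1-KO cell replicate 4.

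Ribosome biogenesis genes were mostly higher where they were called between edited and WT cells. Of 52 tested, 17 were higher and 1 lower in KEAP1-KO than in WT cells (median 0.19), where 8.13% of all rows and 27.4% of abundant rows were higher. In DKO against WT cells 19 were higher and 4 lower (median 0.31), where 8.46% of all rows and 31.5% of abundant rows were higher. Translation factors gave 16 higher and 4 lower of 57 in each of these comparisons. Other TOP genes gave 3 higher and 3 lower of 23 between KEAP1-KO and WT cells. Leukocyte sums in culture, over 14 rows, were 113 to 145 in WT, 218 to 253 in KEAP1-KO and 255 to 267 in DKO cells. Of these markers Adgre1, the macrophage antigen F4/80, had 0 reads in all 12 libraries, and Ptprc, the leukocyte antigen CD45, was at most 2.56. Cd14 was between 6.47 and 6.52 in WT, between 6.60 and 6.88 in KEAP1-KO and between 7.56 and 7.67 in DKO cells, and Cd68 was between 6.74 and 6.91 in KEAP1-KO cells. Proliferation sums were 12263 to 14160 in WT, 9125 to 10072 in KEAP1-KO and 9004 to 9369 in DKO cells, and their part in the differences of the members was not tested.

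Tumors had less ribosomal protein RNA than cultured cells of the same genotype, in both subunits. Of 83 members, 63 were lower and 1 higher in WT tumors than in WT cells, against 14.1% and 24.7% of all 37246 rows. In KEAP1-KO tumors of Experiment A, 65 were lower and 1 higher than in KEAP1-KO cells, against 15.8% and 23.9%, and in those of Experiment B 66 were lower and 1 higher, against 14.9% and 23.9%. In DKO tumors 69 were lower and 1 higher than in DKO cells, against 15.9% and 27.6%. The median differences were -0.94, -0.79, -0.80 and -1.25 in this order, and those of all rows 0.20, 0.16, 0.17 and 0.23. Abundant rows of any gene were also mostly lower in tumors, by medians of -0.76, -0.70, -0.72 and -0.97, against -0.99, -0.74, -0.73 and -1.25 for the abundant members. Called lower were 76.5%, 75.5%, 75.7% and 78.9% of abundant rows, against 97.8%, 95.7%, 97.8% and 100% of the abundant members. Groups did not overlap in 62, 65, 65 and 68 members, against 35.7%, 36.5%, 36.9% and 40% of all rows.

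The size of these differences depended on scaling. With quantile normalization, the member medians were -0.38, -0.33, -0.34 and -0.59, and with median centring -1.33, -1.02, -1.07 and -1.62. After rescaling without the 20 highest rows they were -0.56, -0.47, -0.45 and -0.80, with the median of all rows then at 0.44, 0.37, 0.40 and 0.52. Most members stayed lower in each scaling, with between 50 and 72 called. Proliferation sums were 9004 to 14160 in cells and 2321 to 4884 in tumors, leukocyte sums 113 to 267 and 1934 to 7694, and their part in the lower values was not tested.

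Rplp1 fell most among the abundant members in WT tumors. It was at 14.36, 14.09, 14.28 and 14.21 in WT cells and at 12.75, 12.96, 12.92 and 13.02 in WT tumors, more than 1 unit apart, with a difference of -1.32 (SE 0.08, limma adjusted p = 7.25e-13). Rpl9 was at 13.11, 13.09, 12.94 and 13.07 in DKO cells and at 11.46, 11.40, 11.52 and 11.34 in DKO tumors, with a difference of -1.62 (SE 0.05, limma adjusted p = 1.89e-18). Rpsa had the largest difference of the abundant members in DKO tumors, -1.75. Rpl28 had the smallest, -0.76 in DKO tumors, and in KEAP1-KO tumors of Experiment A its difference of -0.16 was not called.

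Among members named for the largest falls, low rows prevailed. Rps2 had a difference of -2.45 (SE 0.29) in DKO tumors, from 6.42 to 6.97 in DKO cells to 3.61 to 4.97 in DKO tumors. Rps23, whose product lies at the decoding center, had one of -2.16 (SE 0.36) and Rps27l, the p53-induced paralog of Rps27, one of -2.0 (SE 0.30). Rps12 had a difference of -1.38 (SE 0.16) in WT tumors. Rpl35 had one of -1.84 (SE 0.39) in Experiment A and Rpl10, which joins late in the maturation of the large subunit, one of -1.99 (SE 0.54) in Experiment B, each for KEAP1-KO tumors against KEAP1-KO cells. All of these passed the test. Rps4l is the 1 member counted as higher in each of these comparisons. It was below the filter in cells and entered the joint fit through its tumor values, so that its direction was fixed by the filter and is given as a description. It was at 2.0 in each WT cell library, which is 0 reads and allows up to 3, and at 4.2, 2.97, 3.81 and 3.31 in WT tumors. It was at most 2.30 in any cell library and between 2.35 and 4.2 in tumors, so that no tumor overlapped with cells, at a level of a few reads.

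The difference between DKO and KEAP1-KO, called the effect of NRF2 loss below, was not the same in tumors and in cells. Cell line, and in tumors flank, go with genotype and cannot be told apart from it. The difference between DKO and KEAP1-KO was more negative in tumors than in cells in 39 of 83 members and less so in 0, where 1.55% of all rows were called lower and 2.12% higher in this interaction. The median was -0.45, and 37 of the 46 abundant members were called (80.4%, against 24.2% of abundant rows of any gene). With quantile normalization 24 were lower and 0 higher, and the median lay between -0.54 and -0.30 over the scalings. For Rpsa, the effect was -0.75 in tumors and -0.06 in cells, and the interaction -0.69 (SE 0.10, limma adjusted p = 0.000152). For Rpl9 it was -0.38 in tumors and 0.21 in cells, and the interaction -0.59 (SE 0.07, limma adjusted p = 1.44e-05). Rps19 gave -1.41 and 0.19 with an interaction of -1.60 (SE 0.43, limma adjusted p = 0.032), and Rpl12, at the base of the stalk, -0.60 and 0.07 with one of -0.68 (SE 0.19, limma adjusted p = 0.0379). The interaction uses the same libraries as the separate effects. Leukocyte and stroma sums, given above for tumors, differed between these tumors and were lower in cells. In KEAP1-KO and DKO cells, leukocyte sums were 218 to 253 and 255 to 267, and stroma sums 415 to 502 and 615 to 747. Their part in the interaction was not tested.

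The difference between KEAP1-KO and WT, called the effect of KEAP1 loss below, also was not the same in tumors and in cells, in fewer members. The difference between KEAP1-KO and WT was more positive in tumors than in cells in 11 of 83 members and more negative in 0, against 1.5% and 3.88% of all rows. All 11 were abundant, and the median over the members was 0.14. It lay between 0.04 and 0.30 over the scalings and between 0.07 and 0.19 with 1 library left out, lowest without KEAP1-KO cell replicate 1, and the calls were 7 higher and 1 lower with quantile normalization and 23 higher and 0 lower with median centring. For Rpl28 the effect was -0.07 in tumors and -0.68 in cells, with an interaction of 0.61 (SE 0.14, limma adjusted p = 0.00688). For Rpl10a it was 0.08 and -0.41, with one of 0.49 (SE 0.10, limma adjusted p = 0.00239), and for Rpl36 -0.15 and -0.62, with one of 0.47 (SE 0.12, limma adjusted p = 0.0183). In cells Rpl10a was at 13.25, 12.99, 13.22 and 13.07 in WT and at 12.56, 12.83, 12.74 and 12.76 in KEAP1-KO, without overlap. In tumors of Experiment A it was at 12.12, 12.09, 12.16 and 12.36 against 12.29, 12.38, 12.06 and 12.33, with much overlap. Leukocyte sums, given above, were lower in these KEAP1-KO than WT tumors, stroma sums overlapped, and their part here was not tested.

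Large and small subunit members gave close medians in nearly every comparison. Between DKO and KEAP1-KO tumors, 30 of 48 large subunit members and 13 of 35 small subunit members were lower, with medians of -0.49 and -0.45, where 4.64% of all rows were lower. Fewer small subunit rows are abundant. Among abundant rows the counts were 28 of 31 and 12 of 15 and the medians -0.50 and -0.47, where 33.5% of abundant rows of any gene were lower. Between KEAP1-KO and WT tumors the medians were 0.08 and -0.14 over all members tested, and 0.11 and 0.09 over the abundant ones. Between KEAP1-KO and WT cells the abundant medians were -0.15 and -0.10, and between WT tumors and WT cells -0.99 and -0.96. No test was made of a subunit as a whole.

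The paralog pairs were unevenly represented. Rpl3l and Rpl10l had no row. Rpl39 was between 11.83 and 12.26 in WT cells and between 10.41 and 10.66 in DKO tumors, while Rpl39l, an autosomal copy best known from testis, was at most 3.60 in any library. Rpl39 was lower in DKO than in KEAP1-KO tumors by a difference of -0.53 (limma adjusted p = 0.00707). Rpl7 had 0 reads in its row, a processed transcript, in 21 of 28 libraries, and Rpl7l1 was between 6.63 and 7.25 in WT cells and between 2.0 and 4.97 in WT tumors. Rps27 varied between 2.0 and 7.50 with a wide spread within groups, and none of its genotype differences passed the test. Rps4x, the X-linked form, is represented by a low retained intron that is not the highest row of its gene. It was between 2.66 and 5.25 and was not called in any genotype comparison. Rpl3, a protein coding row near the peptidyl transferase center by its product, was at 12.62, 12.50, 12.50 and 12.44 in DKO tumors and at 13.14, 12.99, 13.19 and 13.14 in the KEAP1-KO tumors beside them. These groups did not overlap, with a difference of -0.60 (SE 0.08, limma adjusted p = 0.000132).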

How the data were processed

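RNA of 28 libraries had been depleted of ribosomal RNA, sequenced as strand-specific paired reads and quantified with Salmon by the authors. The deposited values are log2 of normalized count + 4, with a minimum of 2. The methods speak of TPM, and the planned log2(value + pseudocount) step was left out since the values were already on a log2 scale. Low values gave whole reads at a tolerance of 0.05, between 4222352 and 7524277 per library. No count model was used. Some members enter the counts and medians but are not reported here by name. Row types come from GENCODE vM21, which matched 97.0% of transcript rows. The labels' extraction protocol names livers, and the paper's description of cells and tumors was followed.

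Rows that reached 5 normalized counts in 4 or more libraries were fitted with limma 3.58.1 in R 4.3.3 (lmFit, eBayes with trend), separately for tumors, for cells and for all libraries together, and adjusted by Benjamini-Hochberg over all rows at 0.05. Named members were the 3 largest called changes in each direction and a list chosen by function. The members and lists were chosen with earlier results of these data known. Alternatives were other scalings, filters, thresholds, designs, replicate blocks, left-out libraries and sums over the rows of a gene. The sums and the fits of abundant rows only were added after seeing the data.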

Additional observations from a re-analysis of the deposited data

Results flagged for a closer look

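Within groups of 4 libraries, 23 of 329 tests of a member or a subunit measure found a library whose gap to its nearest neighbour took up more of the group's range than Dixon's critical value for 4 libraries allows. Chance gives about 1 in 20 such groups for continuous values. A row at 0 reads in all but 1 library of a group gives a value of 1 by the floor alone. The count is therefore not compared with that rate. In WT cells these were Rpl12 (0.834, replicate 2 at 8.34 and the others at 8.60 to 8.66), Rplp0 (0.993, replicate 4 at 5.48 and the others at 7.53 to 7.55) and Rpl39l (0.947). In KEAP1-KO cells they were the ratio of large to small subunit counts (0.842, replicate 1 at 2.17 and the others at 2.09 to 2.10), Rpl35 (0.978, replicate 1 low), Rps6 (0.84, replicate 2 high) and Rpl7 (1, in 1 library above 0 reads). In DKO cells, replicate 3 was low for Rpl17 (0.911), Rpl22l1 (0.903) and Rpl39 (0.979), replicate 4 was high for Rps27 (0.928, 6.68 against 2.0 to 2.34), and Rpl39l and Rps4l gave 1 each near 0 reads. In WT tumors they were Rpl39l (0.977), Rpl7l1 (0.933, replicate 2 at 2.0 and the others at 4.77 to 4.97) and Rps19 (0.921, replicate 1 at 6.14 and the others at 6.83 to 6.89). In KEAP1-KO tumors of Experiment B they were Rpl39l (0.841), Rpl4 (0.858, replicate 1 low), Rpl7 (1) and Rpsa (0.907, replicate 4 at 12.86 and the others at 12.72 to 12.74). In DKO tumors they were Rpl39l and Rpl7 (1 each) and Rps27l (0.874, replicate 4 at 2.71 and the others at 4.39 to 4.63).

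Among the members that were named as 1 of the 3 largest called changes of a comparison or chosen by function, the effect of KEAP1 loss differed between tumors and cells by the limma interaction for Rpl10a (0.49), Rpl28 (0.61), Rpl3 (0.40), Rpl36 (0.47), Rps26 (0.45) and Rps7 (0.39). Among the same members, the effect of NRF2 loss differed in the large subunit by values of -0.63 for Rpl10a, -0.50 for Rpl11, -0.68 for Rpl12, -0.53 for Rpl13, -0.51 for Rpl17, -0.45 for Rpl19, -0.63 for Rpl3, -0.62 for Rpl34, -0.55 for Rpl35a, -0.63 for Rpl36, -0.59 for Rpl9, -0.49 for Rplp1 and -0.46 for Rplp2. In the small subunit it differed for Rps10 (-0.46), Rps19 (-1.60), Rps26 (-0.67), Rps3 (-0.47) and Rpsa (-0.69).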

How the results depend on the processing

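No called direction was reversed under any alternative run. Counts of members called that moved by more than 1.5 times are given here, and the cause was not tested. Without the mean-variance trend the counts were 5 in Experiment A, 11 for KEAP1-KO and 13 for DKO against WT cells, 1 for DKO against KEAP1-KO cells, and 3 and 19 for the KEAP1 and NRF2 interactions. At an adjusted p under 0.01 they were 14 for KEAP1-KO and 13 for DKO against WT cells, 0 for DKO against KEAP1-KO cells, and 4 and 24 for the interactions. With a log2 difference of at least 1 also required, they were 1 in Experiment A, 1 in Experiment B, 1 for KEAP1-KO and 1 for DKO against WT cells, 0 for DKO against KEAP1-KO cells, 28 for WT tumors against cells, 21 and 18 for KEAP1-KO tumors of Experiments A and B against cells, and 0 and 1 for the interactions. With abundant rows only, which leaves 46 members to test, all 46 were lower in DKO tumors than in DKO cells. Without a filter, KEAP1-KO and DKO against WT cells gave 14 and 19. For DKO against KEAP1-KO cells, quantile normalization gave 11, rescaling without the 20 highest rows 7, without the members 8, and a fit of the groups compared only 5. For the KEAP1 interaction, median centring gave 23 and a fit of the groups compared only 5, and for the NRF2 interaction quantile normalization gave 24. Sums over rows gave 17 in Experiment A, 6 for DKO against KEAP1-KO cells and 17 for the KEAP1 interaction. Leaving out 1 library gave 8 to 13 in Experiment A, 39 to 41 in Experiment B, 15 to 25, 1 to 3 and 20 to 27 in cells, and 8 to 15 and 29 to 38 for the interactions. Correlations computed to look for pairing, which are not those of whole library values, lay between -0.03 and 0.03 for same-numbered libraries. Between WT and DKO cells, 4 libraries matched best with their own number (0.01 to 0.03), against 0 in the other pairs of groups. As these values are small, the numbers were not taken to pair samples. With a replicate block the counts were 9 in Experiment A, 40 in Experiment B, 15, 3 and 20 in cells, and 11 and 36 for the interactions.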
